A study of Mus musculus with 4 samples.

Results

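The genes described here encode receptors for extracellular adenosine and nucleotides, with Entpd1, an enzyme that degrades those nucleotides at the cell surface. They were taken by name from a list of 10 genes (Adora2a, Adora2b, Adora3, P2rx4, P2rx7, P2ry2, P2ry6, P2ry13, P2ry14 and Entpd1), using every probe set annotated to 1 of them and to no other gene. This gave 16 probe sets of 8 genes, out of 18193 genes with such probe sets. No 1-gene probe set was listed for Adora2a or Adora2b, which encode adenosine receptors, and these were not analysed here. Of the 8 genes, 7 reached log2 6, the floor used for comparisons, on at least 1 array, and Adora3 did not.

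Dying, stressed or activated cells release ATP and other nucleotides. P2X receptors are ATP-gated cation channels, P2Y receptors are G protein-coupled receptors for nucleotides or UDP-sugars, and adenosine receptors respond to the nucleoside left when nucleotides have been degraded. In macrophages P2X7 is known for starting inflammasome activation when extracellular ATP is high, and the ectonucleotidase CD39, encoded by Entpd1, lowers ATP and ADP and so feeds adenosine formation.

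Expression was measured on Affymetrix arrays in bone marrow-derived macrophages, obtained by culturing mouse bone marrow cells in M-CSF over 5 days. The 4 groups, with 1 array each, were Jmjd3-/- cells given 100 ng/ml lipopolysaccharide (LPS, a Toll-like receptor 4 ligand from Gram-negative bacteria) for 4 h, Jmjd3-/- cells left unstimulated, wild-type cells given the same LPS stimulus, and wild-type cells left unstimulated. Jmjd3, the product of Kdm6b, removes methyl groups from lysine 27 of histone H3. Jmjd3-/- cells are called knockout below, and the sources used here do not name the deleted part of the gene, the strain, age or sex of the mice, or any pooling of animals. Levels are the authors' log2 RMA values, differences are on that scale, and a fold is 2 raised to the size of a difference. A difference between 2 arrays has no replicate check, and whether the 4 samples represent separate animals or separate cultures is not stated.

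The arrays differed in more than the genotype label. Kdm6b read 10.82 with LPS and 9.82 without in knockout cells on its brightest probe set, against 11.23 and 10.33 in wild-type cells. A dimmer probe set was higher in the knockout, at 6.07 and 5.35, against 5.22 and 4.71, and another lay below the floor on all arrays. These readings do not settle the labels because the deleted part is not known here. All 10 macrophage markers examined reached the floor on all 4 arrays, and their linear values summed to 46694 and 46299 in knockout cells with and without LPS and to 46924 and 45838 in wild-type cells. Between genotypes 1 of them rose (Fcgr1, by 0.76) and 1 fell (Itgam, with an effect of -1.04). Those at least 2-fold lower in the knockout were Itgam and Mertk after LPS, and Itgam and Msr1 unstimulated. Granulocyte and precursor markers (11 measured) summed to 38248 and 38035 in the knockout, against 4769 and 3468 in wild type, and 9 rose and 1 fell between genotypes. Stromal markers (12 measured) summed to 22901 and 27014, against 888 and 692, and 9 rose. Dendritic cell markers (8 measured) summed to 1366 and 1089, against 6438 and 4530, and 3 fell, while Flt3, Cd209a, Xcr1 and Siglech lay below the floor throughout. Of 8 mast cell, basophil and eosinophil markers, 4 fell in the knockout, and Kit and Ms4a2 lay below the floor throughout. Of 6 T, B and NK cell markers 2 fell and the other 4 lay below the floor, and none of 6 erythroid and megakaryocyte markers passed between genotypes (limma, with 3 of the 4 past the floor lower at an unadjusted p below 0.05). Xist read 8.27 and 8.09 in the knockout, against 5.77 and 5.69 in wild type, while Y-linked Eif2s3y lay between 10.45 and 10.76 on all 4 arrays. The part of these differences in the results below was not tested, and in bulk samples fewer cells of a type and less RNA per cell cannot be told apart.

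The receptor genes had sharply different patterns. P2ry14 was higher with LPS and lower in the knockout, P2ry13 was lower in the knockout in both states, P2rx7 fell with LPS, Entpd1 was lower with both factors on all 3 of its probe sets, and P2rx4 (brightest probe set) and P2ry6 lay above log2 10 on every array. Effects shared by both genotypes (LPS) or both states (genotype) were tested with limma in an additive model of LPS and genotype over 9385 genes, with Benjamini-Hochberg adjustment and a threshold of 0.05, and only effects past it are called rose or fell. That model has 1 residual degree of freedom, so its error is the difference between the 2 LPS responses, moderated by the other genes. With 1 array per group, its p-values do not measure the spread between replicate cultures or animals. Any difference shared by both arrays of a genotype, including one of cell make-up, counts wholly as genotype effect. For LPS, 1 of the 7 genes rose (P2ry14), beside 11.2% of all genes, and 1 fell (P2rx7), beside 18.8%. For genotype, 2 of the 7 fell (P2ry13 and P2ry14), beside 3.12% of all genes, and none rose, beside 6.39% (limma, with none higher at an unadjusted p below 0.05 either). The median LPS effect of the 7 genes was -0.33, against -0.22 over all genes tested, and their median genotype effect was -0.86, against 0.05. That genotype median is the value of P2ry2, which reached the floor on 1 array alone. With the other factor left out of the model, so that its effect counts as error, no member passed for either effect, and over all genes 183 rose and 84 fell with LPS while 100 rose and 11 fell in the knockout.

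**Figure D1:**
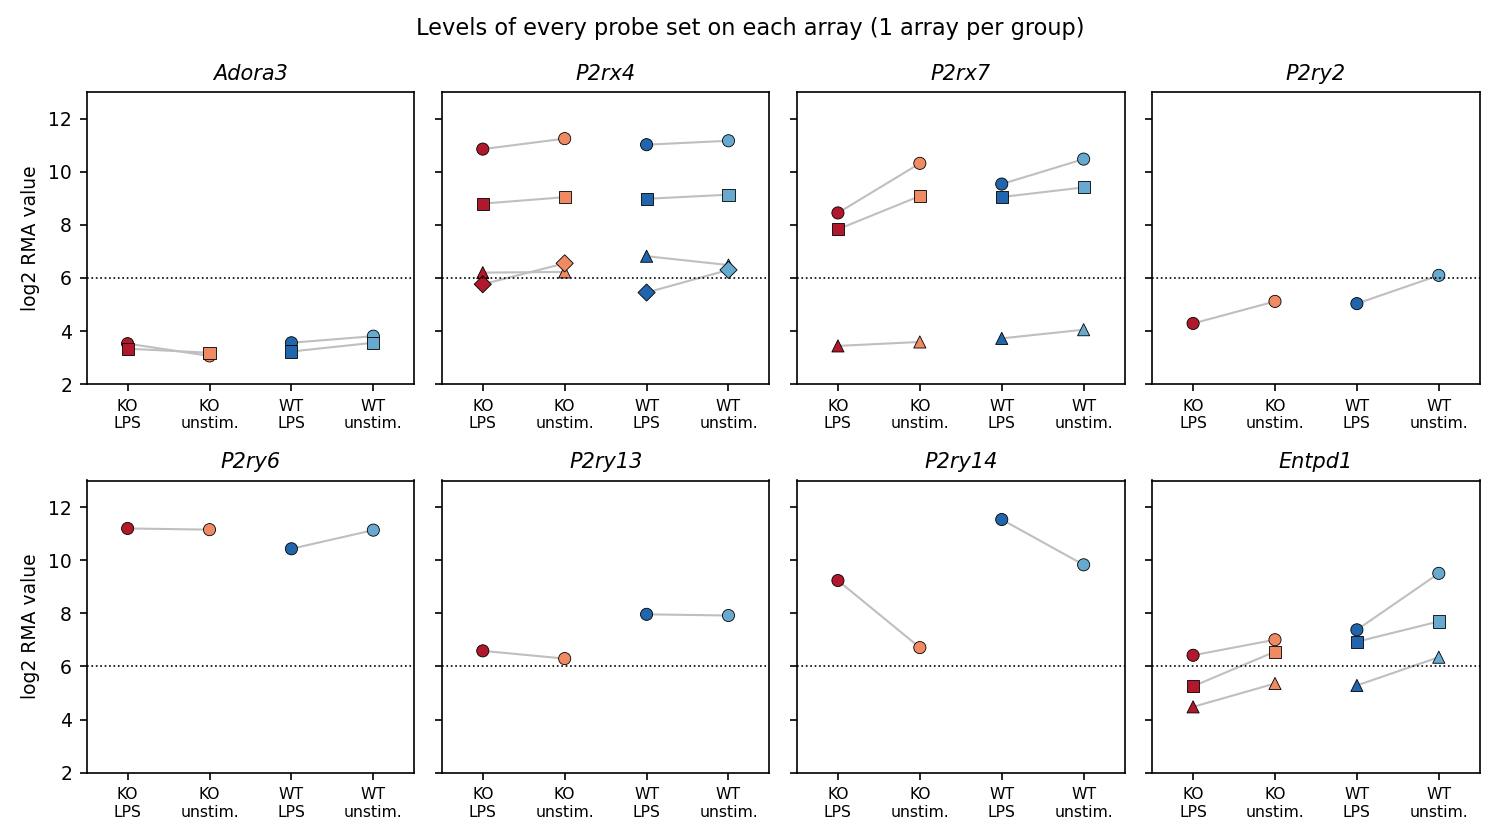
Log2 RMA value (y axis) of each probe set of the 8 genes on each of the 4 arrays (x axis), with a marker shape for each probe set, a grey line joining the 2 arrays of a genotype and a dotted line at log2 6. P2ry14 spans 4.82 over the 4 arrays, P2rx4 spans 0.39 on its brightest probe set, and Adora3 lies below the floor throughout.

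P2ry14 encodes the P2Y14 receptor, which responds to UDP-glucose and related UDP-sugars. It had 1 probe set, which read 9.24 in knockout cells with LPS and 6.71 in unstimulated knockout cells, against 11.53 in wild-type cells with LPS and 9.83 in unstimulated wild-type cells. The wild-type LPS array was highest and the unstimulated knockout array lowest, and the LPS-treated knockout array lay below the unstimulated wild-type one. LPS was accompanied by a 5.75-fold higher level in the knockout and a 3.26-fold higher level in wild type. Over both genotypes P2ry14 rose with LPS by 2.11 ± 0.26 (SE, limma, adjusted p = 0.00944 by Benjamini-Hochberg, with a higher level in each genotype). Between genotypes it fell in the knockout, with an effect of -2.71 ± 0.26 (SE, limma, adjusted p = 0.00637 by Benjamini-Hochberg, with a lower level in each state), with a level 4.91-fold lower after LPS and 8.67-fold lower unstimulated. The LPS response was larger in the knockout by 0.82, or by 0.34 with 64 added to the linear values, and this difference was not tested. The summed linear values of the dendritic cell markers and of the T, B and NK cell markers put the 4 arrays in the same order. No T, B or NK cell marker reached the floor on either knockout array, so the order between those arrays rests on background readings. Itgax was the brightest dendritic cell marker on every array, and 4 of the 8 measured reached the floor on any array. The part of either marker group in the P2ry14 level was not tested.

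P2ry13 encodes the P2Y13 receptor, which responds to ADP and couples to inhibitory G proteins. Its single probe set read 6.59 with LPS and 6.30 without in knockout cells, against 7.96 and 7.92 in wild-type cells. Both knockout arrays lay below both wild-type arrays, and within each genotype the levels with and without LPS were close. The gene fell in the knockout, with an effect of -1.498 ± 0.20, or 2.82-fold (SE, limma, adjusted p = 0.0165 by Benjamini-Hochberg, with a lower level in each state). The LPS effect was 0.17 ± 0.20 (SE, limma, adjusted p = 0.550 by Benjamini-Hochberg). With a floor of log2 8, which P2ry13 does not reach on any array, it was not tested.

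P2rx7 encodes the P2X7 receptor, the ATP-gated channel that opens at high ATP. Its brightest probe set read 8.45 with LPS and 10.31 without in knockout cells, against 9.53 and 10.47 in wild-type cells. The unstimulated arrays of both genotypes were the highest, and the LPS-treated knockout array was the lowest. P2rx7 fell with LPS, with an effect of -1.40 ± 0.27 (SE, limma, adjusted p = 0.0239 by Benjamini-Hochberg, with a lower level in each genotype). The decrease was 3.65-fold in the knockout and 1.92-fold in wild type, a difference between responses of -0.93 that was not tested. Another probe set had the same order of arrays, at 7.83 and 9.08 in knockout cells with and without LPS, against 9.05 and 9.41 in wild-type cells. Fitted among all 15527 probe sets at or above the floor, this probe set had an LPS effect of -0.81 (limma, adjusted p = 0.0761 by Benjamini-Hochberg). The remaining probe set lay below log2 6 on all arrays, and with the mean of the 3 probe sets as the level of the gene the LPS effect was -0.82 (limma, adjusted p = 0.0512 by Benjamini-Hochberg). Between genotypes the brightest probe set differed by -1.09 after LPS and by -0.16 unstimulated, and the fitted effect of -0.62 ± 0.27 (SE) did not pass (limma, adjusted p = 0.255 by Benjamini-Hochberg).

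Entpd1 encodes CD39, which degrades ATP and ADP to AMP outside the cell. The brightest of its 3 probe sets read 6.42 with LPS and 7.01 without in knockout cells, against 7.38 and 9.51 in wild-type cells. The unstimulated wild-type array stood far above the other 3. The next probe set read 5.26 and 6.56 in knockout cells, against 6.93 and 7.69 in wild-type cells, and the dimmest read 4.48 and 5.36, against 5.29 and 6.35. On every probe set the unstimulated wild-type array was highest and the LPS-treated knockout array lowest, and each knockout array lay below the wild-type array of the same state. The fitted effects of the brightest probe set were -1.36 ± 0.40 for LPS and -1.73 ± 0.40 for genotype (SE), and neither passed (limma, adjusted p = 0.0596 and 0.0676 by Benjamini-Hochberg). Fitted among all 15527 probe sets, the next one passed for both, at -1.03 and -1.41 (limma, adjusted p = 0.0337 and 0.0309 by Benjamini-Hochberg). The dimmest, which reached the floor on 1 array, passed for neither, at -0.97 and -0.90 (limma, adjusted p = 0.0834 and 0.192 by Benjamini-Hochberg). With the mean of the 3 probe sets the LPS effect was -1.12 and the genotype effect -1.34, and both passed (limma, adjusted p = 0.0257 and 0.0340 by Benjamini-Hochberg).

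Among the 7 genes the difference between the LPS responses, knockout minus wild type, reached 2-fold for Entpd1 alone, beside 5.19% of all genes at 2-fold or more in that direction. That value, 1.54, belonged to its brightest probe set, while the other probe sets of Entpd1 gave -0.54 and 0.18. Over 3886 genes with 2 or more probe sets, this difference had a median standard deviation of 0.22 within a gene. No member had a knockout response at least 2-fold lower than the wild-type one, beside 4.73% of all genes, and no test of these differences was possible with 1 array per group.

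**Figure D2:**
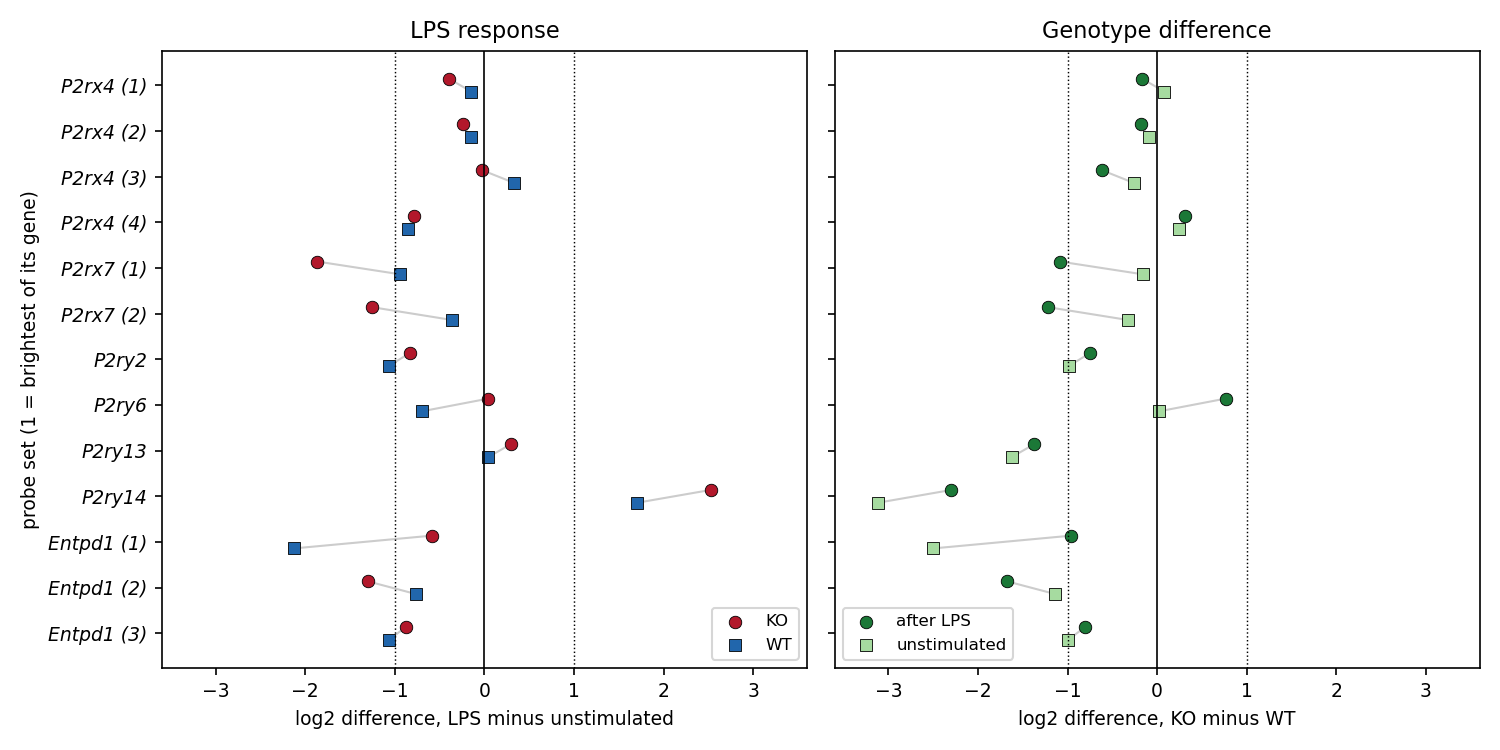
Log2 differences (x axes) of the 13 probe sets at or above log2 6 on at least 1 array (rows, numbered from the brightest within a gene): the LPS response in knockout (KO) and wild-type (WT) cells on the left, and knockout minus wild type after LPS and unstimulated on the right, with dotted lines at 2-fold. The LPS differences of P2ry14 are 2.52 and 1.70, those of the brightest P2rx7 probe set -1.87 and -0.94, and the Entpd1 probe sets lie left of 0 in both panels.

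P2rx4 encodes the P2X4 receptor, an ATP-gated channel found largely in lysosomes of macrophages. Its brightest probe set read 10.85 with LPS and 11.24 without in knockout cells, against 11.02 and 11.16 in wild-type cells. These 4 levels lay within 0.39 of each other, and neither fitted effect passed, at -0.27 ± 0.15 for LPS and -0.04 ± 0.15 for genotype (SE, limma, adjusted p = 0.224 and 0.893 by Benjamini-Hochberg). A further probe set read between 8.80 and 9.14. The 2 dimmest, between 5.45 and 6.82, disagreed with each other in the direction of the LPS difference in wild-type cells (0.33 and -0.85).

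P2ry6 encodes the P2Y6 receptor, which responds to UDP and is known from microglia for promoting phagocytosis. Its single probe set read 11.20 with LPS and 11.15 without in knockout cells, against 10.43 and 11.13 in wild-type cells. Only the wild-type LPS array was lower than the others. The fitted effects were -0.33 ± 0.22 for LPS and 0.39 ± 0.22 for genotype (SE), and neither passed (limma, adjusted p = 0.3003 and 0.362 by Benjamini-Hochberg).

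P2ry2, the gene of the ATP and UTP receptor P2Y2, read 4.29 with LPS and 5.12 without in knockout cells, against 5.04 and 6.10 in wild-type cells. It reached the floor on the unstimulated wild-type array alone, so the sizes of its differences rest on background readings. Its arrays stood in the same order as those of P2rx7, and its LPS effect of -0.95 ± 0.39 did not pass (SE, limma, adjusted p = 0.125 by Benjamini-Hochberg). Adora3, which encodes the adenosine A3 receptor, known from rodent mast cells, lay between 3.07 and 3.81 on both of its probe sets, below the floor on all 4 arrays.

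**Figure D3:**
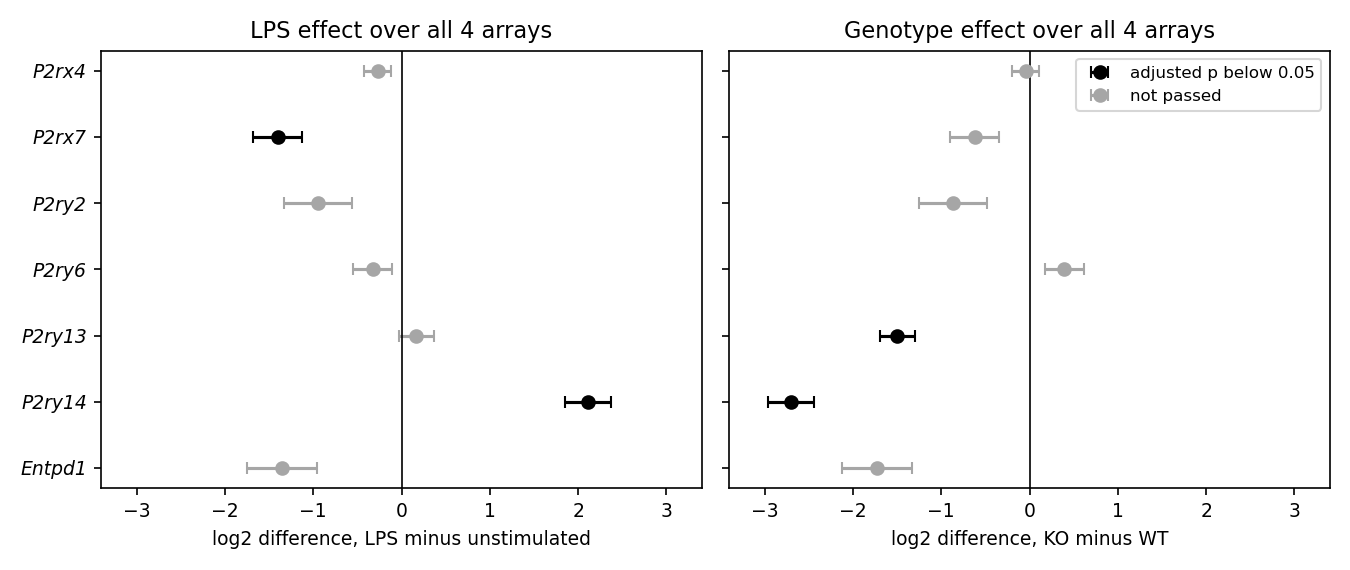
Effects fitted by limma over all 4 arrays (points) with standard errors (bars) for the 7 genes at or above log2 6 on at least 1 array: LPS minus unstimulated on the left and knockout minus wild type on the right, black where the adjusted p is below 0.05. P2ry14 passes in both panels at 2.11 and -2.71, P2rx7 passes for LPS at -1.40 and P2ry13 for genotype at -1.498.

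Counted array against array at 2-fold, the LPS response in the knockout held 1 higher gene of 6 past the floor (P2ry14), beside 11.0% of all genes, and 1 lower (P2rx7), beside 15.5%. In wild-type cells 1 of 7 was higher (P2ry14), beside 9.86%, and 2 were lower (P2ry2 and Entpd1), beside 14.3%. After LPS, 3 of 6 genes were 2-fold or more lower in the knockout (P2rx7, P2ry13 and P2ry14), beside 5.65%, and none higher, beside 9.76%. Unstimulated, 3 of 7 were lower (P2ry13, P2ry14 and Entpd1), beside 5.74%, and none higher, beside 9.54%. P2ry13 and P2ry14 were the genes found in both genotype counts. The 2 LPS counts share no array, whereas each of them shares arrays with both genotype counts.

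Of the 8 measured genes, 6 lie in neighbouring pairs in the RefSeq annotation of assembly GRCm38.p6. P2ry14 (chr3:59114623-59153492) and P2ry13 (chr3:59207892-59210882) are 54.4 kb apart, and Med12l spans both. P2rx7 (chr5:122643927-122692336) and P2rx4 (chr5:122707518-122729739) are 15.2 kb apart, and P2ry6 (chr7:100937630-100975498) and P2ry2 (chr7:100996568-101012053) 21.1 kb apart. Entpd1 lies at chr19:40612366-40741602. P2ry14 and P2ry13 were both lower in the knockout, but their LPS differences were 2.52 and 0.29 in the knockout and 1.70 and 0.04 in wild type. Med12l, which overlaps both genes, had a different profile, at 7.34 with LPS and 5.02 without in knockout cells, against 5.08 and 4.89 in wild-type cells. It reached the floor on the LPS-treated knockout array alone, so its profile rests on that array and on background readings. In the P2X pair the LPS differences of the brightest probe sets of P2rx7 and P2rx4 were -1.87 and -0.39 in the knockout and -0.94 and -0.15 in wild type.

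The promoter sequences of the 3 genes that passed a test are shown because they differ in which factor the gene passed for, and each runs 5′ to 3′ from 250 bases before the annotated gene start to 50 bases from it on. They come from RefSeq (GRCm38.p6) and lie at chr3:59153443-59153742 on the minus strand for P2ry14, chr3:59210833-59211132 on the minus strand for P2ry13 and chr5:122643677-122643976 on the plus strand for P2rx7. Capitals mark matches to the AP-1 motif (TGANTCA) or to the PU.1 motif (GAGGAAG).
P2ry14: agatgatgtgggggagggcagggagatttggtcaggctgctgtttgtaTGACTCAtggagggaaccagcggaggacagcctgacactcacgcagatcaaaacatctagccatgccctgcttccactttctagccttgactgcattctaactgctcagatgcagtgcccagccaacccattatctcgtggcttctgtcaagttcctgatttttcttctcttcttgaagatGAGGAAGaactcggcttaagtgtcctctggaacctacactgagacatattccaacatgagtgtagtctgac
P2ry13: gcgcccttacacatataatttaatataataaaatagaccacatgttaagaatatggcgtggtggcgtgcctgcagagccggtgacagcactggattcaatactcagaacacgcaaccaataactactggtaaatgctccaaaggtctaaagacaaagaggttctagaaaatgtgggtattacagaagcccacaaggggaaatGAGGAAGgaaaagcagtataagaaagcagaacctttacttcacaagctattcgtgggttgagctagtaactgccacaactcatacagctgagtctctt
P2rx7: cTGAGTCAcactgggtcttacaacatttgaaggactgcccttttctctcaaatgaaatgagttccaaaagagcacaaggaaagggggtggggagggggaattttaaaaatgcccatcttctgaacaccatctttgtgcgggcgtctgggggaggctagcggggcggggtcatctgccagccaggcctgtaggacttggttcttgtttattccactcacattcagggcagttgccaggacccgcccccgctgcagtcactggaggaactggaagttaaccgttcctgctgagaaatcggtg
Both strands were searched, and no matches overlapped. The P2ry14 window holds TGACTCA from base -202 to -196 and GAGGAAG from -21 to -15, counted with the start as 0. The P2ry13 window holds GAGGAAG from -48 to -42, and the P2rx7 window holds TGAGTCA from -249 to -243. The AP-1 motif was present in 7.81% and the PU.1 motif in 13.6% of 32817 windows of the same length. No match to an interferon-stimulated response element (GAAA, any 2 bases, GAAA, in 3.43% of windows) or to an NF-kB motif (GGGA, any 4 bases, CC, in 20.7%) was found in these 3 windows. At other annotated starts, windows of P2ry14 held 1 AP-1 match and 1 NF-kB match, and a window of P2rx7 held 1 PU.1 match. These matches are letters in a window, and binding was not measured.

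Among the 3 genes whose profile over the 4 arrays, centred on the mean of the gene, lay nearest to that of P2ry14 were Procr, Cxcl2 and Cdc42ep2, with root mean square differences of 0.29, 0.33 and 0.34 on the log2 scale, out of 9385 genes. Procr, the endothelial protein C receptor gene, read 11.13 with LPS and 8.60 without in knockout cells, against 12.94 and 11.05 in wild-type cells. Nearest to the brightest probe set of Entpd1 were Tlr12, Ocstamp and Junos, with root mean square differences of 0.08, 0.18 and 0.20. Tlr12 read 3.12 with LPS and 3.66 without in knockout cells, against 4.08 and 6.02 in wild-type cells, so it reached the floor on the unstimulated wild-type array alone and its nearness rests on background readings. A likeness over 4 arrays is a description only.

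Other purinergic genes and genes of receptor-coupled signalling were examined in 5 lists of 59 names, of which 54 had 1-gene probe sets and 37 reached the floor. Of 9 other receptors measured, 7 lay below the floor on all arrays, including P2rx1, P2ry1, P2ry4 and Gpr17. P2rx5, the gene of an ATP-gated channel subunit, read 4.08 with LPS and 3.82 without in knockout cells, against 7.18 and 7.06 in wild-type cells, and fell in the knockout, with an effect of -3.17 ± 0.32 (SE, limma, adjusted p = 0.00738 by Benjamini-Hochberg, with a lower level in each state). Its wild-type levels alone passed the floor. P2ry12, the ADP receptor gene next to P2ry13, read 5.46 and 6.26 in knockout cells with and without LPS, against 4.94 and 6.79 in wild-type cells. Of the 2 other receptors past the floor, 1 fell in the knockout, beside 3.12% of all genes, and none rose, beside 6.39%. None of the other receptors passed for LPS, beside 11.2% of all genes that rose and 18.8% that fell (limma, with 1 lower at an unadjusted p below 0.05).

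The next list held genes of nucleotide-degrading enzymes, taken by name and not all from the cell surface. Of the 6 past the floor, 1 rose and 2 fell with LPS, beside 11.2% and 18.8% of all genes. In the knockout 1 rose and 1 fell, beside 6.39% and 3.12%. Acpp, which encodes prostatic acid phosphatase, an enzyme with ecto-5′-nucleotidase activity, read 6.01 with LPS and 4.83 without in knockout cells, against 12.20 and 9.03 in wild-type cells. It rose with LPS and fell in the knockout, with effects of 2.18 and -5.20 (limma, adjusted p = 0.0324 and 0.00605 by Benjamini-Hochberg). Its knockout levels lay at and below the floor, so the size of the genotype effect rests on readings near background. The LPS difference was 1.18 in the knockout and 3.17 in wild type, a difference between responses of -1.99 that was not tested. Alpl, the tissue-nonspecific alkaline phosphatase gene, known from bone-forming cells and neutrophils, read 7.68 and 7.53 in knockout cells, against 4.02 and 3.97 in wild-type cells, and rose in the knockout by 3.61 (limma, adjusted p = 0.00391 by Benjamini-Hochberg). Only its knockout levels passed the floor, so the size of this effect rests on background readings in wild type. The stromal and granulocyte marker sums given above were higher on the same 2 arrays, and their part in the Alpl level was not tested. Entpd5 and Entpd6, relatives of CD39, fell with LPS, with effects of -1.25 and -1.38 (limma, adjusted p = 0.0153 and 0.0147 by Benjamini-Hochberg). Where their products act in these cells was not measured, so these are not readings of nucleotide breakdown at the cell surface. Nt5e, the gene of CD73, which makes adenosine from AMP, read 5.70 and 6.87 in knockout cells, against 5.14 and 5.87 in wild-type cells, and passed neither test.

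Of 8 genes of adenosine metabolism and transport past the floor, Pnp, which encodes purine nucleoside phosphorylase, rose with LPS by 2.08 and Nt5c2, a cytosolic nucleotidase gene, fell by 1.05 (limma, adjusted p = 0.00504 and 0.0194 by Benjamini-Hochberg). These were 1 of 8 in each direction, beside 11.2% of all genes that rose and 18.8% that fell. Pnp read 11.32 and 9.05 in knockout cells with and without LPS, against 11.57 and 9.68 in wild-type cells. None of the 8 passed between genotypes (limma, with 1 higher at an unadjusted p below 0.05), beside 6.39% of all genes that rose and 3.12% that fell. Ada, the adenosine deaminase gene, differed between genotypes by 0.80. It reached the floor on the unstimulated knockout array alone, at 6.48, so the size of this difference rests on background readings. Of the 2 nucleotide release genes past the floor, Panx1, which encodes the ATP-permeable channel pannexin 1, fell with LPS and in the knockout, with effects of -0.76 and -1.02 (limma, adjusted p = 0.0385 and 0.0358 by Benjamini-Hochberg). Of all genes, 18.8% fell with LPS and 3.12% in the knockout. Panx1 read 7.81 and 8.55 in knockout cells, against 8.81 and 9.58 in wild-type cells. Gja1, a connexin gene, read 10.38 and 10.22 in knockout cells, against 9.14 and 6.88 in wild-type cells, and passed neither test.

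Among 19 genes of receptor-coupled signalling past the floor, 3 rose and 7 fell with LPS, beside 11.2% and 18.8% of all genes, with a list median of -0.45 against -0.22 over all genes tested. Pde4b, which encodes a cAMP-degrading phosphodiesterase, rose by 2.397 (limma, adjusted p = 0.00537 by Benjamini-Hochberg). Arrb1, which encodes beta-arrestin 1, a protein that desensitises G protein-coupled receptors, fell by 2.49, and the adenylyl cyclase genes Adcy9 and Adcy3 fell, with effects of -1.59 and -1.34 (limma, adjusted p = 0.00537, 0.0390 and 0.0174 by Benjamini-Hochberg). With LPS, Adcy9 read 5.05 in knockout and 5.34 in wild-type cells, below the floor, so the size of its effect rests on background readings. Between genotypes 1 of the 19 rose, beside 6.39% of all genes, and none fell, beside 3.12%, with 5 lower at an unadjusted p below 0.05. The gene that rose was Adcy3, at 6.80 and 8.06 in knockout cells, against 4.88 and 6.30 in wild-type cells, by 1.84 (limma, adjusted p = 0.0132 by Benjamini-Hochberg). Its wild-type level with LPS lay below the floor, so the sizes of both its effects rest in part on a background reading.

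**Figure D4:**
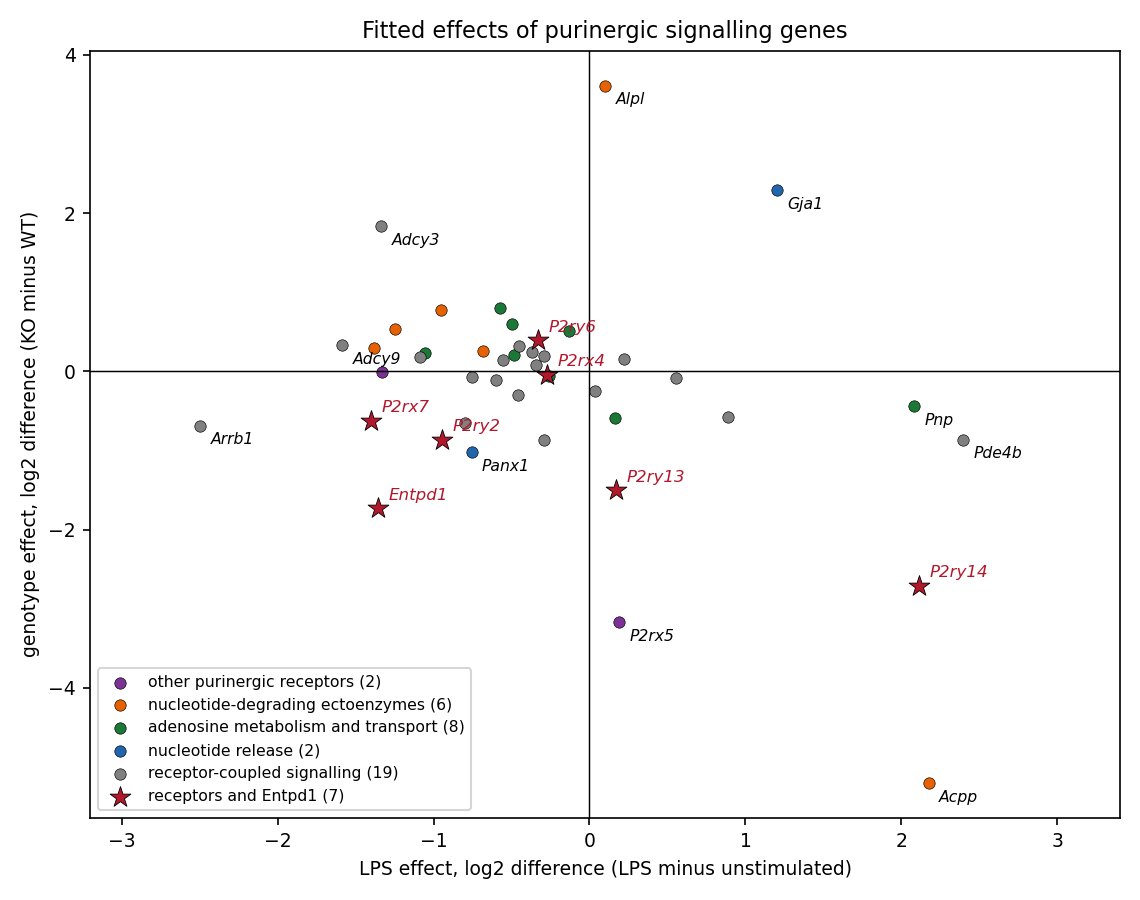
Fitted LPS effect (x axis) and genotype effect (y axis), both log2 differences, of the 37 listed genes (circles, coloured by list) and the 7 receptor and Entpd1 genes (stars) that reached log2 6 on at least 1 array, with names for the outermost genes. Of the 37, 19 belong to the receptor-coupled signalling list. P2ry14 lies at the lower right (2.11 and -2.71) with Acpp well below it (2.18 and -5.20), and P2rx7, P2ry2, Entpd1 and Panx1 at the lower left.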

How the data were processed

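The deposited table holds 1 log2 value per probe set and array, summarised by the authors with RMA, per the submitters' processing notes, which give neither version nor options. Per the labels' protocols, total RNA was extracted with Trizol and labelled through the NuGEN Ovation kit. Of 45101 probe sets, the 34945 annotated to 1 gene were used, with symbols updated by gene identifier through RefSeq (GRCm38.p6), which matched 34741. For each gene the brightest probe set (highest 4-array mean) was fitted, and all probe sets of the receptor genes are given. The number of arrays limits the precision.

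Genes were tested with limma 3.58.1 in R 4.3.3 (additive LPS and genotype terms, intensity trend, prior of 3.84 degrees of freedom) where a level reached log2 6 on an array. Before adjustment, 4221 genes had p below 0.05 for LPS, and 2287 had it for genotype. Single-array differences were counted at 2-fold. Genes named were all members, the called pathway genes with the largest effects (at most 4 per list and effect) and the 3 nearest profiles of the 2 members with the widest range. Med12l and unpassed pathway genes were chosen after their values were seen, as were the motifs. Members and lists were chosen with earlier results of these data known. The alternatives concern the probe set used, the floor, normalization, low values, the variance trend and the model terms. Python 3.11.15, numpy 2.4.6 and pandas 2.3.3 were used.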

Additional observations from a re-analysis of the deposited data

Results flagged for a closer look

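P2ry6 differed with LPS by 0.0448 in knockout cells and by -0.7018 in wild-type cells, 2 values of opposite sign whose difference was not tested. With quantile normalization both were negative, at -0.0417 in knockout cells and -0.742 in wild-type cells. The brightest P2rx4 probe set differed between genotypes by -0.1663 after LPS and by 0.0802 unstimulated, again of opposite sign and untested. The next brightest probe set was lower in the knockout in both states, with differences of -0.1813 after LPS and -0.0941 unstimulated, and the mean of all probe sets gave -0.163 and -0.0065. Within genes with 2 or more probe sets, the median standard deviation was 0.165 for the difference after LPS and 0.192 for the unstimulated one.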

How the results depend on the processing

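No direction of a called effect or of a 2-fold difference was reversed under any alternative run, but several of them could not reverse one. The other floors, the fit without the trend and the model with 1 factor keep the same fitted values. The run with every probe set was compared on the same brightest probe set, and adding 64 keeps the sign of a difference between 2 arrays. Across probe sets the response difference of Entpd1 did change sign, from 1.54 on the brightest to -0.54 on the next. With the other factor left out of the model, no member was called for LPS in either direction (0 higher and 0 lower) or for genotype (0 lower), and P2ry14 had an adjusted p of 0.377 for LPS and 0.698 for genotype, while over all genes 183 rose and 84 fell for LPS and 100 rose and 11 fell for genotype, in place of 1054, 1769, 600 and 293. With every probe set as its own feature, 2 genes fell with LPS (P2rx7 and Entpd1) and 2 were 2-fold lower with LPS in the knockout. In that run 3 genes fell in the knockout (P2ry13, P2ry14 and Entpd1). Without the intensity trend, 2 fell with LPS (P2rx7 and P2ry2). With a floor of log2 8, 1 gene fell in the knockout (P2ry14) and 1 was 2-fold lower with LPS in wild type. That last count was also 1 with quantile normalization and with 64 added to the linear values, and with 64 added 1 gene was 2-fold lower in the knockout after LPS (P2ry14). With the mean of all probe sets, 0 genes had a knockout response 2-fold above the wild-type one. The Entpd1 genotype effect passed with quantile normalization at -1.79 (limma, adjusted p = 0.0352). Adding 64 to the linear values left 51.6% of 2-fold LPS differences in the knockout higher over all genes, against 41.6% as reported. In all, 80 recomputed counts of members stayed within 1.5 times, and 12 did not. With the mean of all probe sets the 1 gene that fell with LPS was Entpd1, not P2rx7, and the 3 genes 2-fold lower in the knockout after LPS included Entpd1 in place of P2rx7. No paired analysis was possible because the labels give no replicate numbers, beyond the additive model itself, which compares LPS within each genotype and genotype within each state. Leaving out an array leaves no residual degrees of freedom. Readings near log2 6 are limited by signal over background.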
